A study of Mus musculus with 250 samples.

Results

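The glutathione and peroxide defence genes described here are 10 genes, Gstm1, Gstm5, Gclc, Gclm, Gss, Gpx4, Prdx6, Cat, Sod1 and Nfe2l2. These genes, and the gene lists used further on, were chosen by name with earlier results of these data known. The 10 genes stand among the 24490 gene rows of the count table, 16367 of which held at least 1 read. All 10 held reads. They were read in 250 single cells of the mouse brain, each titled an astrocyte, by sequencing full-length copies of polyadenylated RNA with the Smart-seq2 method.

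The 250 cells form 1 group. Every cell came from C57BL/6 mice, adults of about 3 months, that carried SM22-Cre and Rosa26-stop-tdTomato. In such mice Cre, driven by the promoter of the smooth muscle gene Tagln (SM22), switches on tdTomato, a red fluorescent protein, by excising the stop before it. The cells were sorted by fluorescence into the wells of plates, with a gate not given in the sources used here. Table headers name the cells by 2 prefixes, read here as plate 3 (88 cells) and plate 2 (162 cells), which are treated as technical batches. Both prefixes hold the letters VSMC, which commonly stand for vascular smooth muscle cell, whereas the sample titles read astrocyte. No animal is named, so the cells cannot serve as replicates and the results are descriptions without tests.

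The cells held 72773548 counted reads, with 102161 to 564958 reads per cell. The median was 391072 reads on plate 3 and 256247 on plate 2. Of 16 astrocyte markers, each cell had between 11 and 16 at 10 CPM (reads of the gene scaled to a total of 1000000 per cell) or more, with a median of 15. A total of 37 cells (14.8%) also had 3 or more markers of another cell type. Of these, 32 had oligodendrocyte markers, 2 had neuronal ones, and 1 each had those of microglia, smooth muscle and fibroblasts.

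Glutathione is a small thiol that cells make from glutamate, cysteine and glycine and use to reduce peroxides and to tag reactive molecules for export. Glutamate-cysteine ligase, built from the products of Gclc and Gclm, catalyses the rate-limiting step of its synthesis, and the transcription factor Nrf2, the product of Nfe2l2, drives many of the genes of the pathway. Astrocytes are known as a main store of glutathione in the brain and supply its precursors to neurons.

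Nrf2 binds the antioxidant response element, whose core was searched for here as TGACNNNGC on both strands of the promoter windows of RefSeq genes (GRCm38.p6), from 250 bases before to 50 bases after each transcript start. RefSeq windows were at hand for 8 of the 10 genes, Gclc and Prdx6 having none in the table used, and Gclm, Gstm5, Nfe2l2 and Sod1 held a match. The letters are in 4071 of all 32851 windows (12.4%), or in at least 1 window of 3781 of 27025 genes (14.0%). A match is a run of letters and not a bound site. The windows with a match are printed because the co-variation of their genes with Nfe2l2 is described further on. Each is given 5′ to 3′ on the strand of its gene, with the match in capitals; where the match lies on the other strand, the capitals show its complement as read on the gene's strand. The Gstm5 window is chr3:107895604-107895903 (plus strand), with the match from -42 to -34 relative to the start. The Nfe2l2 window is chr2:75704614-75704913 (minus strand), with the match from -240 to -232. The Gclm window is chr3:122245307-122245606 (plus strand), with the match on the opposite strand from -134 to -126. The Sod1 window is chr16:90220512-90220811 (plus strand), with the match on the opposite strand from -56 to -48.
Gstm5: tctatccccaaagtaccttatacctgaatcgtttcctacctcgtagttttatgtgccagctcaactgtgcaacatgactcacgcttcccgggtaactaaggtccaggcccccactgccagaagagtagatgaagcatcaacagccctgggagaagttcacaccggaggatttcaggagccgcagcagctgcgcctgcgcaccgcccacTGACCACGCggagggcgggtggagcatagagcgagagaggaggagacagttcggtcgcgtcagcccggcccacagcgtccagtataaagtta
Nfe2l2: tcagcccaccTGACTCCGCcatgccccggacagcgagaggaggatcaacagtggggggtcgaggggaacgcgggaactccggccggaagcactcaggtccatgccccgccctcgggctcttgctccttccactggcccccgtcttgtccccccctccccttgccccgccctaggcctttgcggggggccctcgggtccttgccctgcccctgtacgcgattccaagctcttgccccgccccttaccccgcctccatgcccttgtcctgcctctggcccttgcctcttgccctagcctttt
Gclm: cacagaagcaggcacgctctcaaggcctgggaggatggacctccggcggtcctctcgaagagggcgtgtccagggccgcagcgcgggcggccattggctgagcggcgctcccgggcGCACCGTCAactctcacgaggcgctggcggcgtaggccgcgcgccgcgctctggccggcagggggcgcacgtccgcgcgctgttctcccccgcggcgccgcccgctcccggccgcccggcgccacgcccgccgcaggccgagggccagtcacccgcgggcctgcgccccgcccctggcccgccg
Sod1: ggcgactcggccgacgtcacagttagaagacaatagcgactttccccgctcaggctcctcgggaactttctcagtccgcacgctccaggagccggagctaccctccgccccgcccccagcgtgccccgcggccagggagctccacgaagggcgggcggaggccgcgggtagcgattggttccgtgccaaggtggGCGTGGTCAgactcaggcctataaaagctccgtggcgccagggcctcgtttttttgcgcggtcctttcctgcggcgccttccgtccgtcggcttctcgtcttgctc

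The share of cells in which a gene was detected ran from 7.2% for Gclc to 98.8% for Prdx6. At 10 CPM or more, 6 of the 10 reached 50% of the cells, while 5.92% of all genes with reads did. These 6 were Prdx6, Gstm1, Gstm5, Sod1, Gpx4 and Cat. Nfe2l2 and the 3 synthesis genes Gclm, Gss and Gclc were below that share. Every gene had at least 1 cell without a read, so the lowest level was 0 CPM for all 10.

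**Figure D1:**
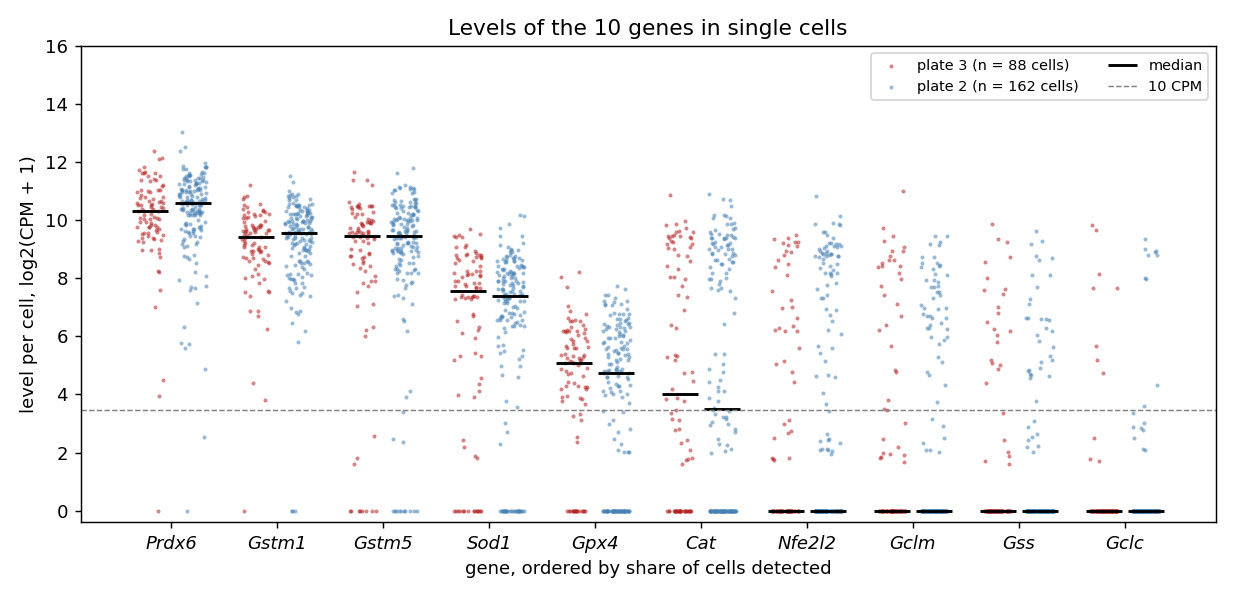
Level of each gene in each cell as log2(CPM + 1), with plate 3 (88 cells) left of plate 2 (162 cells), medians as black bars and 10 CPM as a dashed line. Prdx6 and Gstm1 form high clouds, and Gstm5 a high cloud with a smaller group of cells at or near 0. Gpx4 forms a low cloud, and Nfe2l2, Gclm, Gss and Gclc have a median of 0 on both plates.

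Glutathione synthesis was read in few cells at a time. Gclc, the catalytic subunit of glutamate-cysteine ligase, was detected in 18 of 250 cells (7.2%, exact 95% interval 4.32 to 11.1). Its median was 0 CPM, its highest cell had 907 CPM, and its mean was 24.5 ± 113 CPM (SD between cells, n = 250). A single cell held 14.8% of its summed level.

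Gclm, the modifier subunit of the same enzyme, was detected in 77 cells (30.8%, interval 25.1 to 36.9). Its median was 0 CPM and its highest cell, on plate 3, had 2060 CPM, against 705 CPM in the highest cell of plate 2. Among the cells in which it was detected, the median was 185 CPM.

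Gss, glutathione synthetase, which adds glycine in the last step, was detected in 53 cells (21.2%, interval 16.3 to 26.8). Its median was 0 CPM and its highest cell had 931 CPM. In the annotation 15.4% of its exonic bases overlap genes on the opposite strand (Acss2, Gssos1 and Gssos2), and the strand setting of the counting is not known here.

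The 3 synthesis genes were seldom detected in the same cell. Gclc and Gclm, whose products form 1 enzyme, were both detected in 4 cells (1.6%), and multiplying their shares within each plate gives 5.57 cells. Gclm and Gss were both detected in 18 cells, where the product of shares gives 16.4. All 3 were detected in 1 cell, and 126 cells had none of them at 10 CPM. With 1 read as the limit, 1 cell had all 3 and 101 cells had none. Reads from 1 cell miss many of its transcripts, so a cell without reads of a gene is not shown to lack it.

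The mu-class glutathione transferases Gstm1 and Gstm5, which attach glutathione to reactive molecules, were read in most cells. Gstm1 was detected in 246 cells (98.4%), with a median of 748 CPM, a highest cell of 2947 CPM and a mean of 786 ± 504 CPM. Gstm5 was detected in 226 cells (90.4%), with a median of 708 CPM, a highest cell of 3572 CPM and a mean of 813 ± 645 CPM. The clouds of both genes overlapped widely, and 223 cells had both, where the product of shares gives 222. The Gstm family is a cluster of similar genes in which reads may match several members; of the 50-base runs in Gstm1 transcripts, 19.9% also occur in transcripts of other genes, most of them in Gstm2-ps1. For Gstm5, 13.9% of the exonic bases overlap an antisense gene, 4933431E20Rik.

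Among the genes that remove peroxides, Prdx6 was detected in 247 cells (98.8%). It encodes a peroxiredoxin that reduces hydrogen peroxide and phospholipid hydroperoxides. Its median was 1466 CPM, its highest cell had 8370 CPM, and its mean was 1619 ± 1121 CPM. The middle of the cells, between the quartiles, spanned 828 to 2133 CPM, and 3 cells were below 10 CPM.

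Catalase, Cat, the peroxisomal enzyme that splits hydrogen peroxide, was detected in 129 cells (51.6%). Its median over all cells was 13.1 CPM and its highest cell had 1910 CPM. Among the cells in which it was detected, the median was 453 CPM, with quartiles of 171 and 687 CPM. Most cells with Cat detected thus had a high level, and the others were at or near 0.

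Gpx4, the selenium-containing peroxidase that reduces lipid hydroperoxides in membranes, showed the opposite form. It was detected in 168 cells (67.2%, interval 61.0 to 73.0), with a median of 27.4 CPM and a highest cell of 299 CPM. Its mean was 41.6 ± 48.5 CPM. In cells thinned to 50000 reads it was detected in 59.2%, since 1 read is then worth 20 CPM.

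Sod1, the copper-zinc superoxide dismutase that turns superoxide into hydrogen peroxide, was detected in 203 cells (81.2%). Its median was 170.3 CPM, its highest cell had 1146 CPM, and its mean was 214 ± 208 CPM. Nfe2l2 was detected in 95 cells (38.0%), with a median of 0 CPM, a highest cell of 1837 CPM and a mean of 143 ± 260 CPM. Among the cells with Nfe2l2 detected the median was 362 CPM, so its level, like that of Cat, was either high or close to 0 in most cells.

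Detection was then set against the level. For each gene, the share of cells was compared with that of all genes whose mean CPM lay within 1.25-fold of its own. Gpx4, at 67.2% of cells, stood beside 1655 genes with a median of 17.2%, and 3 of those were detected in as many cells or more. Sod1, at 81.2%, stood beside 422 genes with a median of 53.6%, 14 of them at or above it. Gstm1, at 98.4%, stood beside 58 genes with a median of 90.2%. The other 7 genes lay between 8.10% and 75.8% of the way up their own comparison genes, Gclc being the lowest with 7.2% of cells against a median of 11.6%.

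Gpx4, Sod1 and Gstm1 are also the genes of the 10 that share most sequence with other genes. Of the 50-base runs in Gpx4 transcripts, 51.4% also occur in transcripts of other genes, all of these in the pseudogene Gpx4-ps2. For Sod1 the share was 23.1%, led by Gm8566, and for Gstm1 19.9%. Gclm shared 0.721% and Prdx6 0.280% of theirs, and the other 5 genes shared none. Ftl1, the ferritin light chain and a gene of the Nrf2 target list, shared 69.8% of its runs and was detected in 71.6% of cells against a median of 19.6% for genes of its level. Of 95 genes of the wider glutathione and redox lists with a mean of 10 CPM or more, 9 shared at least 10% of their runs, and 5 of these were detected in more cells than 95% of genes of their level. Of the other 86 genes, 3 were. The 5 were Ftl1, Gpx4, Gstp1, Sod1 and Glrx3. They include Gpx4, Sod1 and Ftl1, described above, so the counts are not independent of those genes. The handling of reads that match several genes is not known here, so the levels of Gpx4, Sod1 and Gstm1 are uncertain. The part of shared sequence in their detection was not tested.

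**Figure D2:**
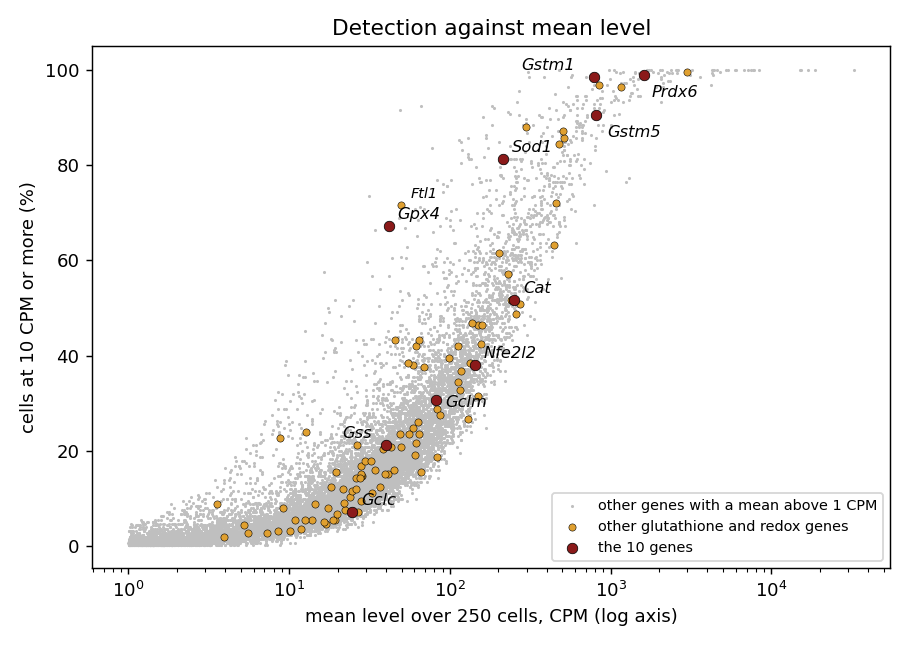
Share of the 250 cells at 10 CPM or more (vertical axis, %) against mean level (horizontal axis, CPM, log scale) for each gene with a mean above 1 CPM. Gpx4 (67.2% of cells) and Ftl1 (71.6%) lie far above the band of genes of like level, while Gclc (7.2%) lies near its lower edge.

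Levels can be compared between genes only per length. Divided by the length of all merged exons, Gstm5 had 636 ± 505 CPM per kilobase (kb), Gstm1 534 ± 342, Prdx6 337 ± 233 and Cat 95.7 ± 143 (SD between cells, n = 250). Sod1 followed with 53.9 CPM per kb, Nfe2l2 with 37.6, Gpx4 with 24.1, Gclm with 13.0, Gss with 6.77 and Gclc with 6.52. Gstm5, Gstm1 and Prdx6 were each in the top 0.464% of genes by this measure. These neighbours overlapped between cells. Gstm5 exceeded Gstm1 in 142 cells and was below it in 107, and Gstm1 exceeded Prdx6 in 170 cells and was below it in 80. Cat and Sod1 changed places with the measure, since Cat was higher by its mean but exceeded Sod1 in 109 cells and was below it in 123.

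The order depended on the length used. Per kb of the longest transcript of any kind, Gstm5 had 750.4 CPM per kb, Prdx6 633, Gstm1 610, Cat 95.7, Nfe2l2 57.6 and Sod1 53.9. Per kb of the longest protein-coding transcript, a length chosen after the data were seen, Gstm5 had 860 CPM per kb, Prdx6 678, Gstm1 610 and Sod1 334, against 95.7 for Cat. For Sod1 the merged exons and the longest transcript both span 3970 bases, and the longest protein-coding transcript 641. Gss had 6.77 CPM per kb by merged exons, 12.3 by the longest transcript and 20.4 by the coding one. By this length Prdx6 exceeded Gstm1 in 133 cells and was below it in 117. Gstm5 was highest, and Gclc lowest, by all 3 lengths. Gstm5 had the highest level per kb of the 10 genes in 128 cells by merged exons and in 116 cells by the coding transcript.

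**Figure D3:**
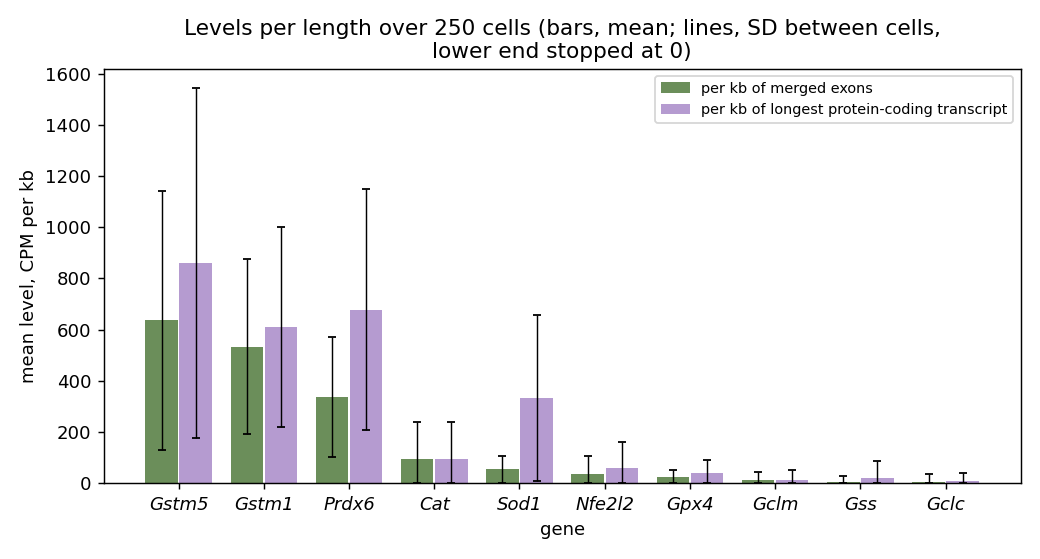
Mean level per length (CPM per kb) of each gene over 250 cells, by merged exons (left bar) and by longest protein-coding transcript (right bar), with the SD between cells as lines. Gstm5, Gstm1 and Prdx6 stand above the rest by both lengths, and Sod1 is 53.9 by merged exons but 334 by the coding transcript.

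Single cells held a median of 6 of the 10 genes at 10 CPM or more, with a range of 2 to 9. No cell had all 10, and 66 to 73 cells each had 5, 6 or 7. The median was 6 on plate 3 and 6 on plate 2. The summed level of the 10 genes was 4013 ± 1735 CPM, with a lowest cell of 696 CPM and a highest of 13926 CPM. Its coefficient of variation (CV, SD over mean) was 0.433, below the CV of every one of the 10 genes, the lowest of which was 0.641 for Gstm1. A sum of genes that hardly vary together tends to a lower CV than its parts, so this is not read as a steady total. Prdx6, Gstm5 and Gstm1 made up 40.3%, 20.3% and 19.6% of the mean sum.

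**Figure D4:**
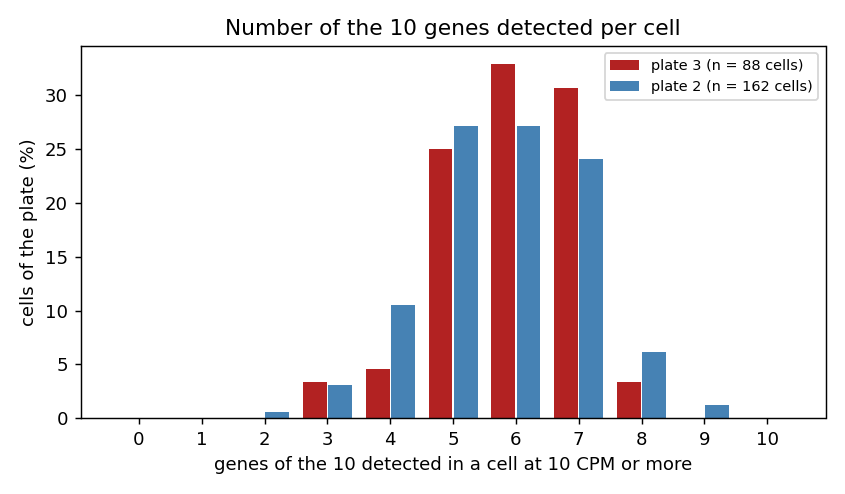
Share of the cells of plate 3 (88 cells, left bars) and plate 2 (162 cells, right bars) in % by how many of the 10 genes were at 10 CPM or more. Most cells had 5, 6 or 7, and no cell had 10.

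The spread between cells was set against the trend of squared CV on mean level, fitted on each plate apart over 6381 genes with a mean of 20 CPM on both plates. Gstm1, Gpx4 and Sod1 were below the trend on both plates, 3 of 10 where 35.9% of all genes were. Gclc, Gss, Prdx6 and Cat were above it on both, 4 of 10 where 35.7% of all genes were. Both shares are close to those over all genes. Of the 10, Gpx4 was farthest from the trend, with a squared CV of 0.167 times the trend on plate 3 and 0.146 times on plate 2, and 0.110% of genes lay lower on each plate. The least even was Gclc, with a CV of 4.68 on plate 3 and 4.48 on plate 2. Gss, close to the trend, had 1.14 times it on plate 3 and 1.01 times on plate 2.

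Between the plates, 3 of the 10 genes differed by 1.5-fold or more in mean CPM, while 29.1% of 7289 genes with a mean of 20 CPM did. The share is near that of all genes. Gclm averaged 112 CPM on plate 3 and 65.1 CPM on plate 2 (log2 ratio 0.78), and Gss averaged 52.0 CPM on plate 3 and 33.6 CPM on plate 2 (0.63). Nfe2l2 was lower, with 102 CPM on plate 3 and 165 CPM on plate 2 (-0.69). All 3 have a median of 0 on both plates, and their shares of detected cells lay closer together. Gclm was detected in 31.8% of cells on plate 3 and 30.2% on plate 2, Gss in 23.9% on plate 3 and 19.8% on plate 2, and Nfe2l2 in 34.1% on plate 3 and 40.1% on plate 2. Without the highest cell of each plate, the log2 ratios were 0.55 for Gclm, 0.54 for Gss and -0.70 for Nfe2l2, which leaves Nfe2l2 alone past 1.5-fold. Without the 37 cells that carry markers of another type, the genes past 1.5-fold were Gclc (0.66), Gclm (0.74) and Nfe2l2 (-0.61), and Gss was at 0.48.

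The 6 widely detected genes differed less between the plates. Prdx6 averaged 1490.9 CPM on plate 3 and 1688 CPM on plate 2, and Sod1 226 CPM on plate 3 and 208 CPM on plate 2. Over the 10 genes the median size of the log2 ratio was 0.18, against 0.36 over the 7289 genes with a mean of 20 CPM. Those genes were not matched in level to the 10, whose median mean was 178 CPM. The smaller size is therefore not read as steadiness between the plates. With library scaling by the trimmed mean of M-values (TMM), the median log2 ratio over all genes is 0.10 in place of -0.04, and the ratios of Prdx6 and Cat, -0.18 and -0.15 by CPM, are 0.00 and 0.02. Nfe2l2 then has a ratio of -0.57, and 2 genes are past 1.5-fold. Gpx4 was detected in 76.1% of cells on plate 3 and 62.3% on plate 2, and at 50000 reads per cell in 62.5% on plate 3 and 57.4% on plate 2.

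Co-variation was measured as Spearman's rho over cells within each plate, as a description without a p-value, since the cells are not replicates and share their plate and a range of depths. Over the 45 pairs of the 10 genes, the median of the mean rho was -0.0014, with -0.024 on plate 3 and 0.047 on plate 2. Over all 20355390 pairs of genes of sufficient level it was 0.0064. The median pair was thus near 0 for the 10 genes, as it was over all genes.

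Gstm5 with Nfe2l2 and Prdx6 with Sod1 had a rho of 0.1 or more on both plates, 2 of 45 pairs where 2.42% of all pairs do. The rho of Gstm5 with Nfe2l2 was 0.25 on plate 3 (88 cells) and 0.11 on plate 2 (162 cells), and at 50000 reads per cell it was 0.17 on plate 3 and 0.084 on plate 2. That of Prdx6 with Sod1 was 0.13 on plate 3 and 0.18 on plate 2, and in thinned cells 0.067 on plate 3 and 0.14 on plate 2. Such weak values in sparse counts are not read as a relation. The lowest pair by mean rho was Gpx4 with Cat, at -0.26 on plate 3 and -0.079 on plate 2.

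Nfe2l2 did not vary in the same way with the other genes whose printed windows hold the element. Its rho with Gclm was -0.10 on plate 3 and 0.16 on plate 2, and with Sod1 -0.060 on plate 3 and 0.058 on plate 2. With Gstm1, whose windows held no match, it was 0.096 on plate 3 and 0.040 on plate 2. Nfe2l2 and Gclm were both detected in 33 cells, where the product of their shares within each plate gives 29.2. The level of the transcript is not the activity of the factor, which is set largely by the stability of its protein.

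**Figure D5:**
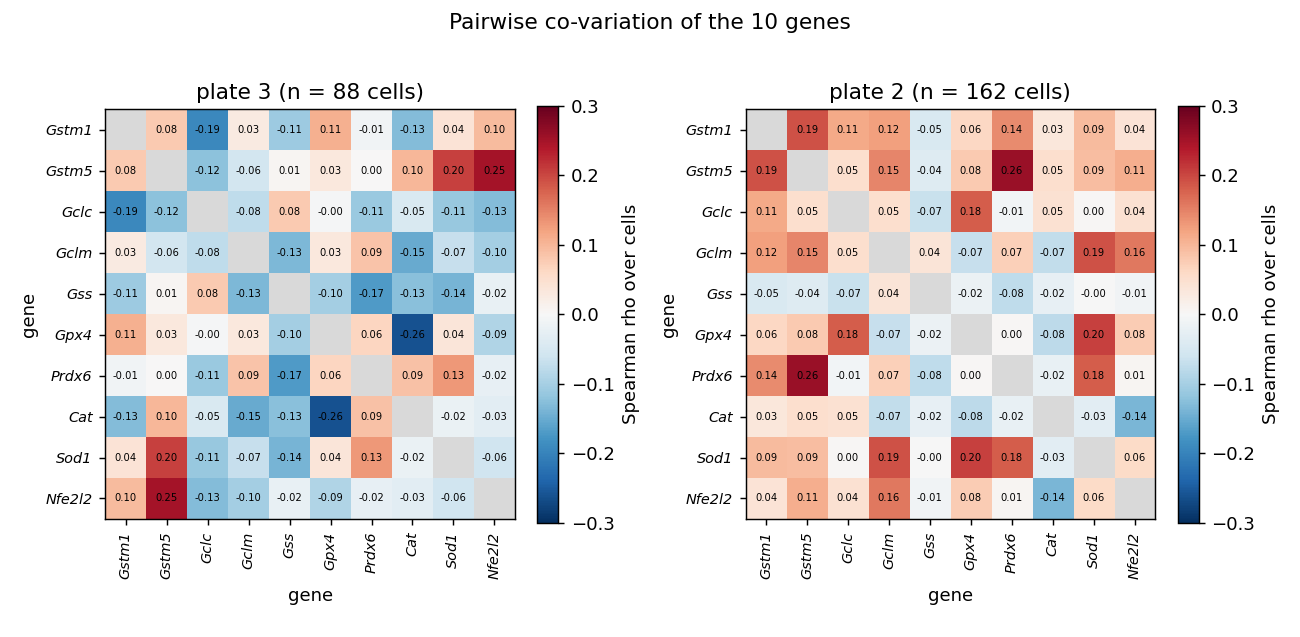
Spearman's rho over cells for each pair of the 10 genes on plate 3 (left, 88 cells) and plate 2 (right, 162 cells), on a colour scale from -0.3 to 0.3. Most pairs are near 0 and many differ in sign between the plates; Gstm5 with Nfe2l2 is 0.25 on plate 3 and 0.11 on plate 2.

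The genes most like each widely detected gene were taken as those with the highest value of the lower of the within-plate rhos, among 6380 genes. Genes picked as the highest of so many are not read as related. For Gstm1 these were Prdx1, a cytosolic peroxiredoxin, at 0.34 on plate 3 and 0.29 on plate 2, then Cox4i1 and Trappc3. For Gstm5 they were Atp5c1, a subunit of the mitochondrial ATP synthase, at 0.29 on plate 3 and 0.30 on plate 2, then Ckb and Slc25a4. For Sod1 they were Cox6a1, a subunit of cytochrome c oxidase, at 0.28 on plate 3 and 0.31 on plate 2, then Aldoc and Ndrg2.

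For Prdx6 the most alike were Gpd1 at 0.21 on plate 3 and 0.27 on plate 2, Dio2, the enzyme that activates thyroid hormone, at 0.45 on plate 3 and 0.21 on plate 2, and Txn2, the mitochondrial thioredoxin. For Gpx4 they were Dancr, Tecr and Tmpo, with Tecr at 0.21 on plate 3 and 0.29 on plate 2. For Cat they were Ccdc137, Entpd5 and Srpr, all at or under 0.23 on both plates. Several of these genes were sparse, with Gpd1 detected in 23.2% of cells, Dio2 and Dancr each in 17.6% and Tmpo in 16.0%. Entpd5 was in 12.8% and Ccdc137 in 8.8%, whereas Srpr was in 34.4%, Txn2 in 42.0% and Tecr in 96.8%. In thinned cells Prdx1, Atp5c1, Dio2, Aldoc and Entpd5 were the most alike of all genes compared to their own gene, but Cox4i1 and Trappc3 came 24th and 33rd for Gstm1, Dancr 11th for Gpx4 and Srpr 10th for Cat.

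Of the cell type markers, the astrocyte marker Aldoc reached a rho of 0.2 or more on both plates with Gstm5, at 0.24 on plate 3 and 0.29 on plate 2. Aldoc also did so with Sod1, at 0.25 on plate 3 and 0.28 on plate 2. The summed oligodendrocyte precursor markers had a rho of 0.34 on plate 3 and 0.12 on plate 2 with Sod1, and of 0.28 on plate 3 and 0.14 on plate 2 with Gclm. The summed oligodendrocyte markers had a rho of -0.30 on plate 3 and -0.017 on plate 2 with Gclm. These sums did not reach 0.2 in size on both plates, and no cell had 3 or more precursor markers. Sums of other types were also sizeable on plate 3 only. Ependymal markers had -0.27 on plate 3 and -0.032 on plate 2 with Nfe2l2, and endothelial markers -0.26 and 0.084 with Gpx4. The part of other cell types in these genes' levels was not tested.

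Some further genes, chosen after their values were seen, were set against Prdx6 and Gstm5. Itih3, a secreted protein of the matrix, had a rho with Prdx6 of -0.23 on plate 3 and -0.35 on plate 2, and with Gstm5 of -0.24 on plate 3 and -0.27 on plate 2. The water channel Aqp4 had a rho with Prdx6 of 0.25 on plate 3 and 0.16 on plate 2, and Agt one of -0.17 on plate 3 and -0.24 on plate 2. With Gstm5, Aqp4 was near 0 (-0.013 on plate 3 and -0.046 on plate 2), and Agt was at 0.042 on plate 3 and -0.34 on plate 2. Gstm1 was close to 0 with Itih3 on plate 3 (-0.029) and at -0.15 on plate 2. Nfe2l2 had a rho with Itih3 of -0.27 on plate 3 and -0.12 on plate 2. Gfap was near 0 with Prdx6, at 0.047 on plate 3 and -0.018 on plate 2.

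The wider pathway was read from lists of 124 genes, 116 of them with reads, of which 20 were detected in at least 50% of cells (17.2%, against 5.92% of all genes with reads). Without the 10 genes the count is 14 of 106 (13.2%). In the list for glutathione synthesis, transport and recycling, 3 of 21 genes with reads reached 50% of cells, and none of these is a synthesis enzyme. Slc3a2 and Slc7a11, which together form the cystine importer, were detected in 96.4% and 63.2% of cells with means of 1165 ± 682 and 444 ± 608 CPM. Lap3, an aminopeptidase, was detected in 51.6%. Gclm and Slc7a11 were both detected in 45 cells, where the product of their shares within each plate gives 48.5.

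Of 20 transferases with reads, 3 reached 50% of cells, namely Gstm1, Gstm5 and the microsomal Mgst1 (84.4%, mean 477 ± 407 CPM). Gstz1 and Gsta4 were each in 46.4%. Gpx4 was the only one of 6 glutathione peroxidases with reads to reach it, with a mean of 41.6 CPM. Gpx8, Gpx7 and Gpx1 had means of 66.1, 41.4 and 32.5 CPM and were detected in 15.6%, 15.2% and 18.0% of cells. Of 13 peroxiredoxin and thioredoxin genes it was reached by Prdx6, Prdx1 (88.0%) and Prdx2 (61.6%), and Prdx4 was in 42.4%. Of 5 superoxide dismutase and catalase genes it was reached by Sod1, Cat and the secreted Sod3 (57.2%), with the mitochondrial Sod2 at 46.8% and Ccs, which loads copper into Sod1 protein, at 23.6%.

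Of 12 regulators and partners of Nrf2 with reads, Sqstm1, which binds its inhibitor Keap1, was detected in 72.0% of cells, and Rbx1 and Btrc, parts of ubiquitin ligases, in 38.4% and 19.2%. Of 18 known Nrf2 targets, 5 reached 50%, namely Fth1, Ftl1, Gstm1, Slc7a11 and Tkt. Of 13 genes in the list for NADPH supply, Tkt (87.2%) and Aldh1l1 (85.6%) did, with Idh1 at 48.8%. That list is not limited to enzymes that make NADPH, and Tkt itself does not make it. Sepp1, which carries selenium, was detected in 99.6% of cells and was the only one of 10 genes of selenoprotein supply to reach 50%, with Lrp8 at 21.6% and Trnau1ap at 16.0%. Of 10 genes of lipid peroxidation and ferroptosis, Lpcat3 was at 50.8%, Tfrc at 31.6% and Dhodh at 15.2%.

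Of the 70 further genes of the lists with a mean of 20 CPM or more, 5 differed by 2-fold or more between the plates, while 10.2% of 7289 genes of that level did. Genes of the lists below that mean were not counted, and some of them also passed 2-fold. The 5 were Chac2, Cul3, Gstm4, Btrc and Pgd. Chac2, which degrades glutathione, averaged 42.5 CPM on plate 3 and 10.7 CPM on plate 2, and Cul3, the scaffold of the ligase that marks Nrf2 for degradation, 68.7 CPM on plate 3 and 15.6 CPM on plate 2. Gstm4 averaged 2.09 CPM on plate 3 and 40.1 CPM on plate 2, Btrc 30.6 CPM on plate 3 and 76.5 CPM on plate 2, and Pgd 34.8 CPM on plate 3 and 80.4 CPM on plate 2. The 5 genes were detected in 7.2% to 23.6% of cells, and 1 cell held 30.9% of the summed level of Gstm4.

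By the GENCODE M21 annotation of GRCm38, to which the submitters' build mm10 corresponds, Gstm5 (chr3:107895821-107898686, plus strand) and Gstm1 (chr3:108012255-108017973, minus strand) lie on chromosome 3, as does Gclm (chr3:122245557-122270732, plus strand). Chromosome 2 holds Nfe2l2 (chr2:75675513-75704641), Cat (chr2:103453849-103485160) and Gss (chr2:155563181-155592810), all on the minus strand. Prdx6 is at chr1:161240112-161251219 (minus strand), Gclc at chr9:77754535-77794485 (plus strand), Gpx4 at chr10:80047166-80056439 (plus strand) and Sod1 at chr16:90220754-90226329 (plus strand).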

How the data were processed

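The deposited counts are whole-number reads per gene and cell, not normalized, per the file's own values. A further table by the authors, also deposited, gives a score, the count scaled to 500000 per cell and rounded, which 100% of entries matched within 0.5. STAR 2.4.2a and the mouse build mm10 are named, per the submitters' processing notes. The counting tool, strand setting, annotation and filter on cells were not given in the sources used here. All columns were matched to a sample (0 unmatched), no cell was removed and no doublet caller was run, since cells were sorted into single wells.

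CPM is the count over the cell's total, scaled to 1000000. Detected means 10 CPM or more. Shares carry exact (Clopper-Pearson) 95% intervals. The intervals treat cells as independent draws and cover the sampling of cells only. They do not cover differences between animals, since cells are not animals, or the noise of reads, which have no molecular identifiers. Variability used a lowess trend (span 0.1, statsmodels 0.14.6) on each plate, Spearman's rho was computed within plates, and TMM factors came from edgeR 4.0.16. Cells were also thinned to 50000 reads (seed 7). Lengths come from GENCODE M21, which had 95.3% of the table's symbols, and shared sequence is exact 50-base runs in its transcripts. The calculations were tested on simulated data.

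The text names the 10 genes, for each of the 6 widely detected ones the 3 most alike genes, the 3 of each pathway list with the highest mean CPM, those that differ 2-fold or more between plates, and markers with a rho of 0.2 or more in size on both plates. Some values that this rule names are not reported here. The genes and lists were chosen with earlier results of these data known.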

Additional observations from a re-analysis of the deposited data

How the results depend on the processing

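Of the 10 genes, 3 differed by 1.5-fold or more between the plates, but 1 without the highest cell of each plate and 0 of the 6 with a ratio when medians replaced means. Without the cells carrying markers of another type the count was 3, with Gclc in place of Gss. The genes detected in at least 50% of cells numbered 6 with 1 read as the limit and in thinned cells, and 4 at 50 CPM, where Gpx4 was in 30.8% of cells and Cat in 41.6%. The summed level was 3927 CPM without the cells carrying markers of another type and 3881 CPM without the highest cells. The median rho was within -0.024 to 0.047 in all settings tried. Without the highest cell of each plate, Gclc had a log2 ratio of 0.01 in place of 0.37, and with medians Cat had 0.57 in place of -0.15. Of single values, 5 log2 ratios and 12 shares of cells moved beyond their spread. The length of the longest protein-coding transcript, by which Sod1 had 334 in place of 53.9 CPM per kb, was an alternative chosen after seeing the data. No paired analysis was possible because the cells form 1 group and their numbers only name them. Gclc, Gss and Gclm rest on 1809, 2922 and 6357 reads in all cells; in cells thinned to 50000 reads they were detected in 7.2%, 20.4% and 30.0%, against 7.2%, 21.2% and 30.8% at full depth.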
